A study of Mus musculus with 20 samples.

Results

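The hepatic carboxylesterases Ces2a, Ces2c, Ces2e, Ces1b, Ces1c, Ces1d, Ces1e, Ces1f, Ces1g and Ces3a were followed across 20 mouse livers. The genes were taken by symbol, with every probe of each kept, which gave 10 genes and 15 probes out of 21450 symbols and 30146 probes in the table. Ces2a had 4 probes, Ces1c and Ces1g had a pair each, and the others had 1. All 15 probes passed the filter on low counts, so no member was lost. Where 1 probe stands for a gene below, it is the lead probe, the one with the highest mean count.

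The mice were male Balb-C, 10 to 12 weeks old, and received Nafion byproduct 2 by daily gavage over 7 days. The compound is a fluorinated ether sulfonic acid that arises in the making of a fluoropolymer. The groups were a control that received the vehicle alone, and daily doses of 0.03, 0.3, 3 and 6 mg/kg, each of 4 mice with 1 library per mouse. The protocols give deionized water as the vehicle while the control titles name DMSO, and which was given is not settled here. Liver RNA was measured with TempO-Seq, in which pairs of detector oligonucleotides that anneal side by side on an RNA are ligated, amplified and counted. Values are CPM, the usual unit of counts normalised to library size, with the sizes adjusted by the TMM method (trimmed mean of M values). The reads of each probe depend on its own binding as well as on the RNA, so levels are compared between mice for 1 probe and not between genes.

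Carboxylesterases hydrolyse esters, amides and thioesters, and in the liver most of them are held in the lumen of the endoplasmic reticulum. They clear ester drugs and pesticides, and several also cleave triacylglycerol, diacylglycerol or cholesteryl ester, which ties them to the turnover of stored fat and the assembly of lipoproteins. In mice, genes of the Ces2 branch are known as targets of the nuclear receptors that sense foreign compounds, among them the constitutive androstane receptor and the pregnane X receptor.

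The 10 genes lie on chromosome 8 in 2 tandem clusters (GENCODE M21, GRCm38). Ces1b, Ces1c, Ces1d, Ces1e, Ces1f and Ces1g, all on the minus strand, span 93056728 to 93337308, which is 281 kb. Ces2a, Ces2c, Ces2e and Ces3a, all on the plus strand, span 104734003 to 105058413, which is 324 kb. Probe positions within the genes were not used here.

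Promoter windows from 250 bases before to 50 bases after the transcription start (RefSeq, GRCm38.p6) were matched for 7 of the 10 members: Ces2a, Ces2c, Ces2e, Ces1b, Ces1c, Ces1e and Ces1g. Ces1d, Ces1f and Ces3a are named only. The windows of the 3 Ces2 genes are printed because these neighbours share a cluster while their RNA levels took different courses over dose, and that of Ces1g because it was the member of the Ces1 cluster whose 2 probes both rose at the top dose. Each runs 5′ to 3′ on the gene's strand, at chr8:104733753-104734052 for Ces2a, chr8:104846818-104847117 for Ces2c, chr8:104926010-104926309 for Ces2e and chr8:93337160-93337459 on the minus strand for Ces1g. Capitals mark matches, on either strand, to 5 short motifs: AGGTCA and AGTTCA, half-sites of nuclear receptors, TGACNNNGC, the core of the antioxidant response element, TATAAA and CCAAT.
Ces2a: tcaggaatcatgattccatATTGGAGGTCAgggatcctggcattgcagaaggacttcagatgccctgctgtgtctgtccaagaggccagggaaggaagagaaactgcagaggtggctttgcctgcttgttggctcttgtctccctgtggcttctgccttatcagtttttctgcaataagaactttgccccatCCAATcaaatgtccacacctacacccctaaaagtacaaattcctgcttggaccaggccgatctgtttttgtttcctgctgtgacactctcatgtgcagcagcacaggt
Ces2c: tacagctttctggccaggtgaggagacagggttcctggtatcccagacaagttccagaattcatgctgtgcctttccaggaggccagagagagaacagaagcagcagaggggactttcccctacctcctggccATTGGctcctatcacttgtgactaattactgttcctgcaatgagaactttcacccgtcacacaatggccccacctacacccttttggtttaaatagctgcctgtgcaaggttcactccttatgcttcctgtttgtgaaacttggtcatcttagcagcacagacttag
Ces2e: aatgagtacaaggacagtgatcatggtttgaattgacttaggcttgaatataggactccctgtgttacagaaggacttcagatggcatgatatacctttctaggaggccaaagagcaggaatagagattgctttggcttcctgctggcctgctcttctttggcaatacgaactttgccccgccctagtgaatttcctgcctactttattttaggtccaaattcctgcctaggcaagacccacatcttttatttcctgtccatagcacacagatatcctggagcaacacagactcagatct
Ces1g: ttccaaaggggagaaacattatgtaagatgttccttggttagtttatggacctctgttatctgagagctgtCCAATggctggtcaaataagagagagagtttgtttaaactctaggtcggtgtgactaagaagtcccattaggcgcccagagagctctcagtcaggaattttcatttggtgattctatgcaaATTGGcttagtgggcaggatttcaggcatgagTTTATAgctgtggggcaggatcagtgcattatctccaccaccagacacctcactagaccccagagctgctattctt

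In these windows AGGTCA was found in Ces2a alone, with its first base 226 bases before the start, directly after a CCAAT match on the other strand that began at -231. Ces2a held a second CCAAT match at -58, Ces2c held 1 at -117, and Ces1g held a TATAAA match at -26 and CCAAT matches at -179 and -58. Ces2e held none of the 5 motifs. Over 32851 mouse promoter windows of the same length, AGGTCA occurred in 16.3%, AGTTCA in 14%, TGACNNNGC in 12.4%, TATAAA in 13.6% and CCAAT in 37.4%. The Ces2a window was 70% identical to that of Ces2c and 66.3% identical to that of Ces2e, and the Ces2c and Ces2e windows were 62.3% identical. A match to such short letters is a description of the window and no evidence of binding.

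The libraries held 6823518 to 10310931 counts each, where 3 counts corresponded to 0.251 to 0.511 CPM. Replicate 4 of 3 mg/kg and replicate 4 of 6 mg/kg stood apart from their groups. Of the 14122 probes tested, 24.0% in the first and 15.9% in the second lay more than 2-fold from the median of the other 3 mice of the group, against 0.637% to 3.25% in the other 18 libraries. Of the 15 carboxylesterase probes, 4 did so in the first and 7 in the second, against 0 or 1 in any other library. The changes of the members at 3 and 6 mg/kg that rest on these 2 libraries are therefore given with and without them. The plate positions in the titles put the control and 0.03 mg/kg libraries in row A and those of 3 and 6 mg/kg in row B, so plate row and the contrast of either high dose with control can hardly be told apart: only the 0.3 mg/kg group, with replicates 1 to 3 in row A and replicate 4 in row B, spans both. The contrast of 6 with 3 mg/kg lies within row B. At 0.3 mg/kg the mouse in row B had less Ces1g (34.3 CPM, against 47.3 to 59.9 CPM in row A) and less Ces1d (83.7 CPM, against 123 to 158 CPM). It also had less Ces3a (42.2 CPM, against 60.1 to 62.2 CPM) and less Ces1f (140 CPM, against 169 to 206 CPM). Other members were higher in that mouse: Ces2c (147 CPM, against 107 to 120 CPM) and Ces1e (90.5 CPM, against 63.7 to 78.2 CPM). So were the lead probe of Ces1c (4264 CPM, against 3045 to 3586 CPM) and, slightly, Ces2e (621 CPM, against 563 to 612 CPM). The Ces2a probes went both ways in that mouse. The lead probe was slightly higher (587 CPM, against 547 to 574 CPM), as was Ces2a_31253 (131 CPM, against 88.0 to 111 CPM). Ces2a_78586 was lower (64.6 CPM, against 83.8 to 126 CPM), and Ces2a_65564 lay within the range of row A.

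**Figure D1:**
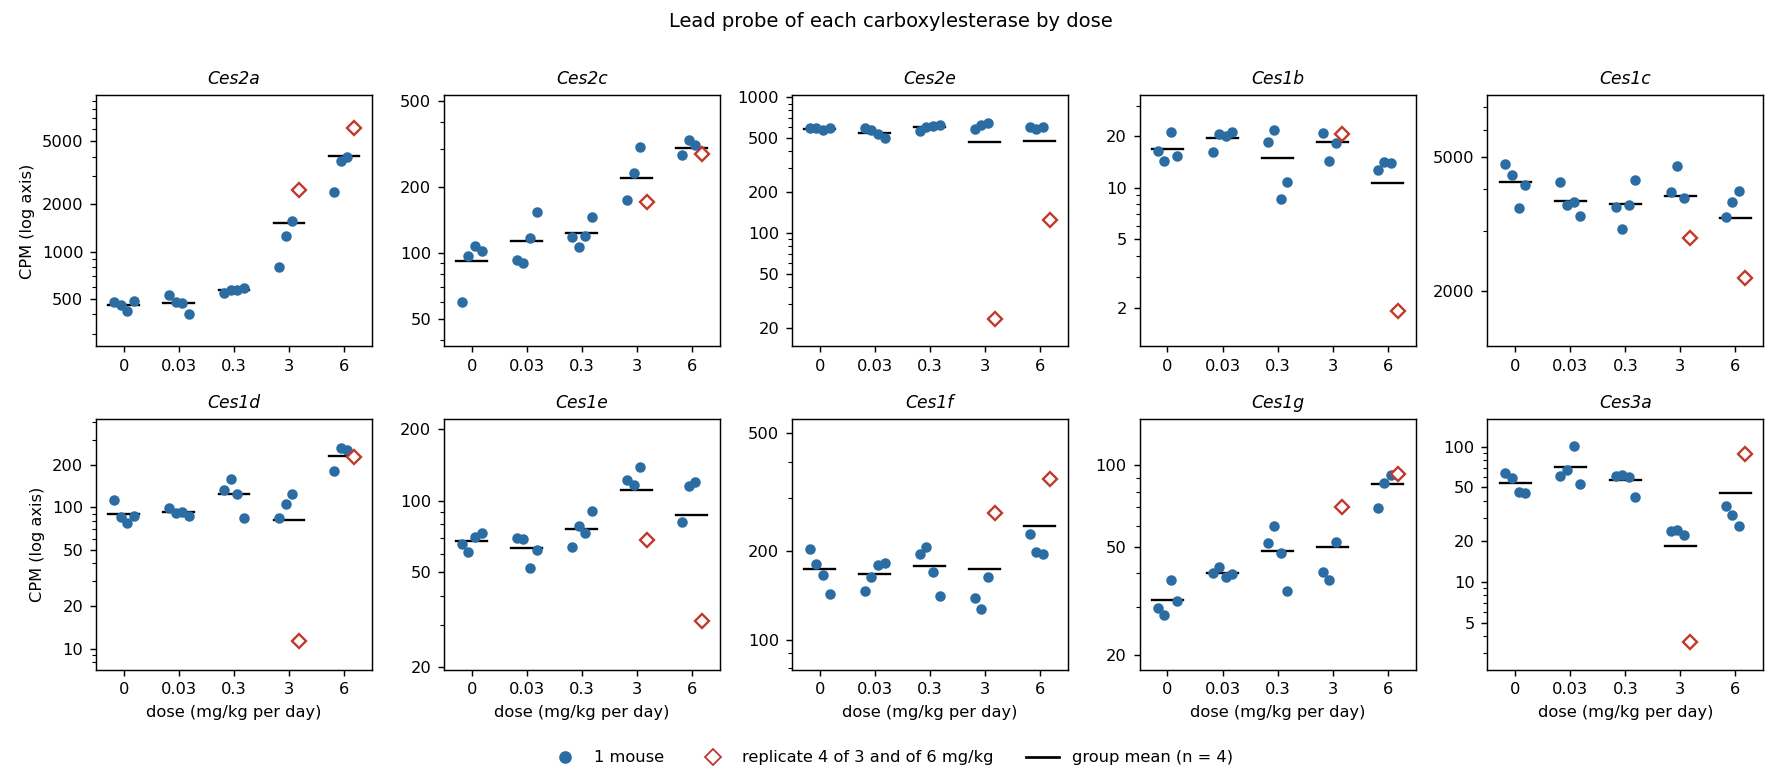
CPM (log axis, 1 scale per panel) of the lead probe of each of the 10 carboxylesterases against daily dose; each point is 1 mouse, the bar is the mean of 4, and open diamonds are replicate 4 of 3 mg/kg and replicate 4 of 6 mg/kg. Ces2a and Ces2c climb at 3 and 6 mg/kg and Ces1g and Ces1d are highest at 6 mg/kg, whereas Ces2e keeps between 499 and 647 CPM in 18 libraries and falls out in the 2 diamonds alone.

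At the 2 low doses no carboxylesterase probe passed the test (edgeR quasi-likelihood, Benjamini-Hochberg over 14122 probes, threshold 0.05). At 0.03 mg/kg 0 of 15 were called, against a background of 0.0% of all probes called, and 0 of 15 had an unadjusted p under 0.05, against 457 of all probes. At 0.3 mg/kg 0 of 15 were called, again against 0.0% of all probes, and 3 had an unadjusted p under 0.05, against 1175 of all probes. DESeq2 and limma-voom called 0 at both doses as well. The 3 were both Ces1g probes, with log2 changes of 0.60 (SE 0.19) and 0.65 (SE 0.18) and an edgeR adjusted p of 0.444 and 0.417, and 1 Ces2a probe, with 0.68 (SE 0.29) and an adjusted p of 0.554.

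At 3 mg/kg Ces2a and Ces2c were the members that passed the test, both higher than control. At that dose 5 of 15 probes were higher than control and 0 were lower, against a background of 1.49% of all probes called, 1.11% higher and 0.382% lower; all 5 were the 4 Ces2a probes and the Ces2c probe. The median log2 change over the 15 probes, of which 4 are of Ces2a, was 0.58, against 0.00 over all probes. The lead probes alone had a median of 0.07. Without the 2 libraries that stood apart, 6 were higher and 1 was lower, against 2.66% of all probes called, with Ces1e added to those higher and Ces3a to those lower. With plate row as a term, or with only the 2 groups in the fit, 0 of 15 passed at 3 mg/kg; the lead probe of Ces2a then had a log2 change of 1.66 (adjusted p = 0.918) and 1.74 (adjusted p = 0.062).

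At 6 mg/kg 8 of 15 probes were higher than control and 0 were lower, against a background of 20.3% of all probes called, 11.6% higher and 8.73% lower. They were the 4 Ces2a probes, Ces2c, both Ces1g probes and Ces1d, that is 4 of the 10 genes. The median log2 change over the 15 probes was 1.19, against 0.01 over all probes; the lead probes alone had a median of 0.43. Without the 2 libraries 9 were higher and 1 was lower, against 27.8% of all probes called, and with plate row as a term 4 of 15 were higher. The groups did not overlap, every mouse at 6 mg/kg lying above every control, for those same 8 probes, against 13.2% of all probes, and every mouse lay below every control for 2 of 15, Ces1b and the second Ces1c probe, against 13.6%.

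Set against 3 mg/kg, 6 mg/kg gave 5 of 15 probes higher and 0 lower, against a background of 6.73% of all probes called, 3.96% higher and 2.77% lower. The 5 were 2 Ces2a probes, Ces1d and both Ces1g probes. Over the dose rank as a number, 8 of 15 probes had a rising slope and 0 a falling one, against 18.0% of all probes called, 11.3% rising and 6.72% falling. With the 2 libraries left out, these counts became 7 higher and 0 lower, against 17.4%, and 9 rising and 1 falling, against 16.9%.

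**Figure D2:**
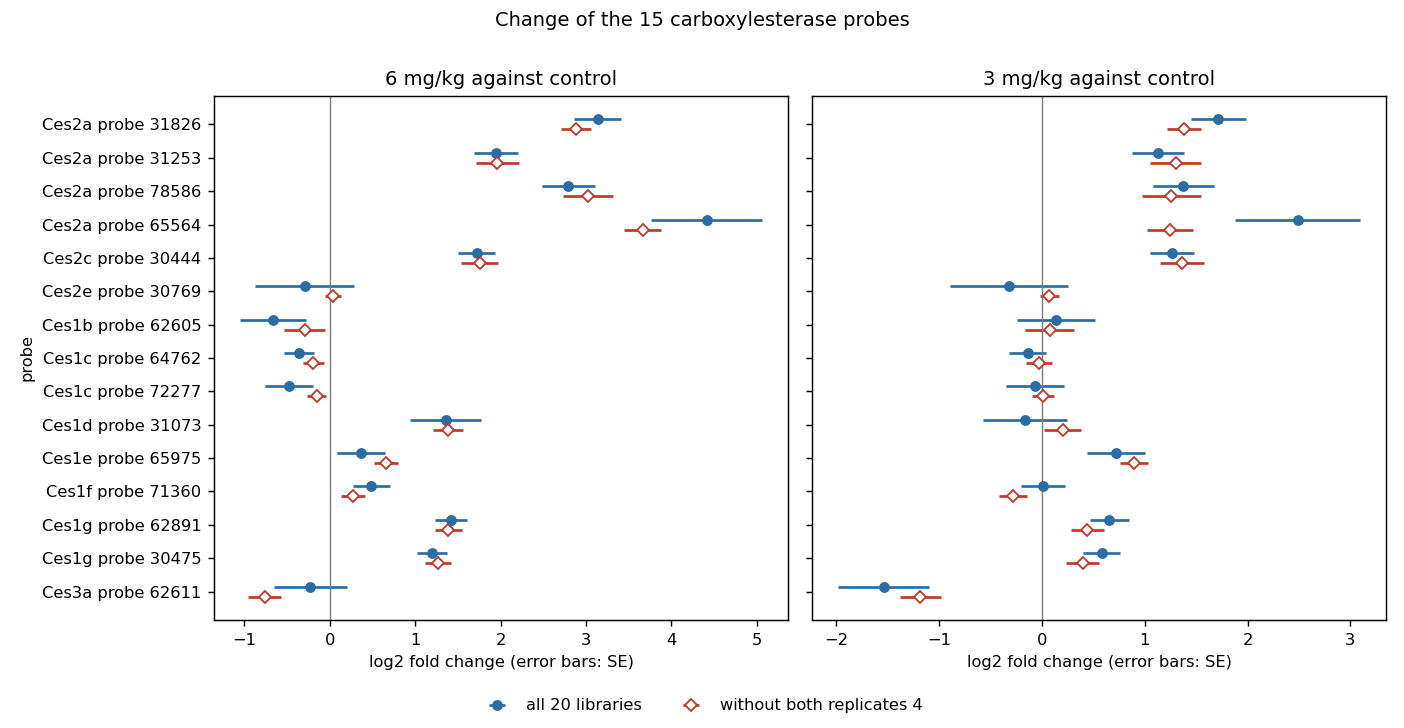
Log2 fold change with its SE for each of the 15 carboxylesterase probes at 6 mg/kg (left panel) and 3 mg/kg (right panel) against control, in all 20 libraries (filled circles) and in 18 (open diamonds). All Ces2a and Ces2c points lie at or above 1.13 in both panels, and Ces3a and Ces1e move away from 0 at 6 mg/kg in the 18 libraries.

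Ces2a, an acylglycerol hydrolase of the endoplasmic reticulum, had the largest changes of the set. Its lead probe, Ces2a_31826, gave 480, 458, 419 and 487 CPM in controls. It gave 534, 482, 471 and 401 CPM at 0.03 mg/kg and 547, 574, 569 and 587 CPM at 0.3 mg/kg. It gave 795, 1255, 1561 and 2447 CPM at 3 mg/kg and 2396, 3740, 3988 and 6105 CPM at 6 mg/kg. At 0.3 mg/kg the log2 change of 0.30 (SE 0.26) did not pass the test (edgeR adjusted p = 0.768). At 3 and 6 mg/kg every mouse lay above every control, and replicate 4 was the highest of its group at both doses. The log2 change was 1.72 (SE 0.26, adjusted p = 0.00083) at 3 mg/kg and 3.14 (SE 0.28, adjusted p = 1.3e-07) at 6 mg/kg, and 1.42 (SE 0.26, adjusted p = 0.0034) between 6 and 3 mg/kg. Without the 2 libraries these were 1.38 (SE 0.17), 2.89 (SE 0.18) and 1.5 (SE 0.19).

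The other 3 Ces2a probes moved the same way from lower counts. Ces2a_31253 gave 248, 430, 378 and 351 CPM at 6 mg/kg, against 80.5, 69.4, 85.6 and 129 CPM in controls, a log2 change of 1.95 (SE 0.26, adjusted p = 2.1e-05). Ces2a_78586 gave 326, 554, 566 and 210 CPM at 6 mg/kg, against 46.7, 58.0, 75.0 and 58.9 CPM in controls, a log2 change of 2.79 (SE 0.31, adjusted p = 3.7e-06). Ces2a_65564 gave 115, 142, 131 and 494 CPM at 6 mg/kg, against 14.5, 11.1, 6.36 and 9.48 CPM in controls, a log2 change of 4.41 (SE 0.65, adjusted p = 0.00012). Replicate 4 of 6 mg/kg thus gave the lowest value of its group on 1 of these probes and the highest on another, as well as the highest on the lead probe. Ces2a_65564 had, without the 2 libraries, a log2 change of 3.66 (SE 0.22) at 6 mg/kg and of 1.24 (SE 0.22) at 3 mg/kg, where all libraries gave 2.49 (SE 0.61). At 3 mg/kg the other probes had 1.13 (SE 0.25) and 1.38 (SE 0.30).

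Whether probes of 1 gene changed by unequal amounts was tested on their ratios. Of 8 pairs of probes of 1 gene, 0 had a within-library log2 ratio that differed between 6 mg/kg and control at an adjusted p under 0.05, the smallest being 0.0762 (two-sided exact permutation test, 4 against 4, Benjamini-Hochberg over 8 pairs). For 3 of the pairs, all of Ces2a, the groups of ratios did not overlap and the unadjusted p was the smallest this design can give, 0.0286. At that p, adjustment over 8 pairs gives a value under 0.05 only where most pairs reach it. The count of 0 therefore cannot decide whether the probes changed equally. The lead probe over Ces2a_31253 had a mean log2 ratio of 3.48 (SD 0.44) at 6 mg/kg, against 2.37 (SD 0.36) in controls. Ces2a_31253 over Ces2a_65564 differed most of the 8 pairs, by -2.16. Its mean was 0.94 (SD 0.97) at 6 mg/kg, or 1.41 (SD 0.26) without replicate 4, against 3.09 (SD 0.68) in controls. The pair of Ces1g probes and the pair of Ces1c probes had an adjusted p of 0.152 and 0.686.

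**Figure D3:**
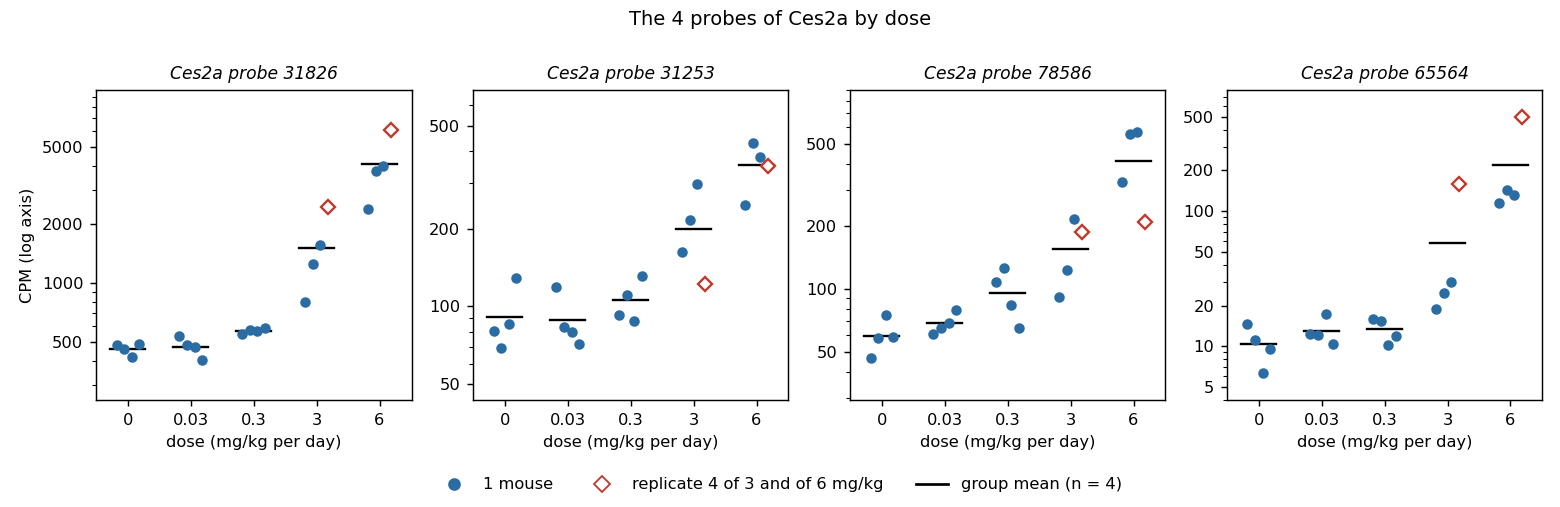
CPM (log axis, 1 scale per panel) of the 4 Ces2a probes against daily dose; each point is 1 mouse, the bar is the mean of 4, and open diamonds are replicate 4 of 3 mg/kg and replicate 4 of 6 mg/kg. All 4 probes are highest at 6 mg/kg, and the diamonds lie high for Ces2a_31826 and Ces2a_65564 but at the low end of the 6 mg/kg group for Ces2a_78586.

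Ces2c, a close relative of Ces2a that also hydrolyses acylglycerols and drug esters, rose at both high doses without the replicate 4 libraries standing out. Its probe gave 59.9, 97.4, 108 and 103 CPM in controls, 92.9, 90.2, 117 and 155 CPM at 0.03 mg/kg, and 118, 107, 120 and 147 CPM at 0.3 mg/kg. It gave 175, 233, 305 and 172 CPM at 3 mg/kg and 282, 330, 314 and 286 CPM at 6 mg/kg. Every mouse at 3 and 6 mg/kg lay above every control. The log2 change was 1.26 (SE 0.21, adjusted p = 0.0020) at 3 mg/kg and 1.72 (SE 0.21, adjusted p = 9.1e-06) at 6 mg/kg. The step between 6 and 3 mg/kg, 0.46 (SE 0.21), did not pass the test (adjusted p = 0.187). By sequence, 29.0% of the 25-base windows of the Ces2c transcript also occur in another Ces transcript, most of them in Ces2b, and 6.66% of the 50-base windows do. Some of its counts may thus come from relatives, but whether its probe lies in a shared stretch was not examined.

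Ces2e, another Ces2 enzyme, did not pass the test at any dose. It gave 589, 591, 579 and 596 CPM in controls, and 18 of the 20 libraries lay between 499 and 647 CPM, a coefficient of variation of 5.72%. The other 2 were replicate 4 of 6 mg/kg at 125 CPM and replicate 4 of 3 mg/kg at 23.3 CPM. Its log2 change was -0.29 (SE 0.58, adjusted p = 0.750) at 6 mg/kg and -0.32 (SE 0.58) at 3 mg/kg. Leaving both out gave 0.04 (SE 0.09) at 6 mg/kg and 0.07 (SE 0.09) at 3 mg/kg, with an adjusted p of 0.789 and 0.836. Ces2a rose more than Ces2e: the within-library log2 ratio of Ces2a over Ces2e averaged 3.25 (SD 1.61) at 6 mg/kg, against -0.35 (SD 0.08) in controls (two-sided exact permutation test, p = 0.0286, adjusted p = 0.039 over 45 pairs of members, n = 4 each). Without replicate 4 of 6 mg/kg the ratio averaged 2.46 (SD 0.40, n = 3) at 6 mg/kg, with an adjusted p of 0.0714.

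In the Ces1 cluster, Ces1g and Ces1d rose at 6 mg/kg. Ces1g, a liver enzyme whose activity lowers triacylglycerol secretion in mice, gave 69.4, 86.0, 92.3 and 93.0 CPM at 6 mg/kg on its lead probe, against 29.7, 28.1, 37.8 and 31.5 CPM in controls. Its second probe gave 38.3, 46.9, 44.1 and 36.5 CPM at 6 mg/kg, against 16.5, 18.2, 18.5 and 19.3 CPM in controls. On both probes the groups were fully apart and replicate 4 of 6 mg/kg lay with or near its group mates. The log2 changes were 1.42 (SE 0.19, adjusted p = 2.1e-05) and 1.19 (SE 0.18, adjusted p = 7.1e-05), and between 6 and 3 mg/kg 0.77 (SE 0.19, adjusted p = 0.018) and 0.61 (SE 0.17, adjusted p = 0.037). At 3 mg/kg the changes of 0.65 (SE 0.19) and 0.58 (SE 0.18) did not pass the test (adjusted p = 0.0948 and 0.125). Without the 2 libraries that stood apart, the changes at 3 mg/kg were 0.44 (SE 0.16, adjusted p = 0.192) and 0.40 (SE 0.16, adjusted p = 0.260). Those at 6 mg/kg were then 1.39 (SE 0.16) and 1.26 (SE 0.15), and those between 6 and 3 mg/kg 0.95 (SE 0.17) and 0.87 (SE 0.16). The means of the lead probe over dose were 31.8 ± 4.26 CPM in controls, 40.2 ± 1.42 at 0.03, 48.3 ± 10.7 at 0.3, 50.1 ± 14.7 at 3 and 85.2 ± 11 at 6 mg/kg (SD, n = 4 each). Replicate 4 of 3 mg/kg was the highest of its group on both probes. Without it the lead probe averaged 43.4 ± 7.79 CPM at 3 mg/kg (SD, n = 3), below the mean at 0.3 mg/kg.

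Ces1d, a triacylglycerol hydrolase that mobilises stored fat for lipoprotein assembly, gave 180, 264, 254 and 226 CPM at 6 mg/kg, against 112, 85.1, 77.0 and 86.7 CPM in controls. The groups did not overlap, and the log2 change was 1.36 (SE 0.41, adjusted p = 0.027). At 3 mg/kg it gave 83.3, 104, 124 and 11.3 CPM, so replicate 4 was far below its group mates while the others lay within the control range or just above it. Without the 2 libraries the log2 change at 6 mg/kg was 1.38 (SE 0.18, adjusted p = 3.5e-06), and between 6 and 3 mg/kg it was 1.18 (SE 0.19), against 1.52 (SE 0.42, adjusted p = 0.035) in all libraries. With all libraries but 1, the call at 6 mg/kg was lost when control replicate 2, 3 or 4 or 6 mg/kg replicate 2 or 4 was left out, with an adjusted p between 0.058 and 0.065 and a log2 change between 1.28 and 1.36.

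Ces1e, also called egasyn, which holds beta-glucuronidase in the endoplasmic reticulum, did not pass the test with all libraries. It gave 65.8, 60.7, 70.4 and 73.0 CPM in controls, 123, 116, 138 and 68.2 CPM at 3 mg/kg and 81.5, 115, 120 and 31.2 CPM at 6 mg/kg. Replicates 1 to 3 of both high doses lay above every control, and replicate 4 lay inside the control range at 3 mg/kg and under it at 6 mg/kg. With all libraries the log2 change was 0.72 (SE 0.28, adjusted p = 0.290) at 3 mg/kg and 0.37 (SE 0.28, adjusted p = 0.370) at 6 mg/kg. Without the 2 it was 0.89 (SE 0.14, adjusted p = 0.00022) and 0.66 (SE 0.14, adjusted p = 0.00070).

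Ces1c, an esterase that mouse liver secretes into plasma, gave 0.334% to 0.766% of all counts of a library through its pair of probes. Its lead probe gave 3304, 3655, 3966 and 2185 CPM at 6 mg/kg, against 4753, 4412, 3531 and 4117 CPM in controls. Its second probe gave 2430, 3140, 3119 and 647 CPM at 6 mg/kg, against 3344, 3266, 3152 and 3249 CPM in controls. Neither passed the test: the log2 changes were -0.36 (SE 0.18, adjusted p = 0.154) and -0.48 (SE 0.28, adjusted p = 0.238), and -0.19 (SE 0.13) and -0.15 (SE 0.11) without the 2 libraries. Replicate 4 of 6 mg/kg was the lowest of its group on both probes. The share of all counts taken by the 15 probes together was 1.05% to 1.39% at 6 mg/kg, against 0.787% to 0.939% in controls.

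Ces1f, another triacylglycerol hydrolase, gave 227, 197, 195 and 349 CPM at 6 mg/kg, against 202, 180, 165 and 143 CPM in controls, and the groups overlapped. Its log2 change was 0.49 (SE 0.22, adjusted p = 0.115) with all libraries and 0.27 (SE 0.14, adjusted p = 0.146) without the 2. Ces1b, a sparsely studied neighbour of Ces1c, gave 12.7, 14, 14 and 1.90 CPM at 6 mg/kg, against 16.2, 14.4, 21.1 and 15.2 CPM in controls. The 2 groups of Ces1b were apart, but barely, and the log2 change of -0.66 (SE 0.39, adjusted p = 0.231) did not pass the test, nor did the -0.29 (SE 0.24, adjusted p = 0.388) without the 2 libraries. Ces1b and Ces1c share sequence: 24.3% of the 25-base windows of Ces1b also occur in Ces1c, and 9.92% of the 50-base windows do.

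Ces3a, a liver carboxylesterase at the far end of the Ces2 cluster, was lower in the high dose groups in most mice, but did not pass the test with all libraries. It gave 63.9, 58.8, 46.1 and 45.3 CPM in controls, 60.8, 67.5, 100 and 53.2 CPM at 0.03 mg/kg, and 61.1, 62.2, 60.1 and 42.2 CPM at 0.3 mg/kg. It gave 23.9, 24.5, 22.1 and 3.62 CPM at 3 mg/kg and 36.4, 31.2, 25.9 and 88.8 CPM at 6 mg/kg. All 4 mice at 3 mg/kg lay below all 4 controls, against 4.62% of all probes lower in this way and 3.35% higher (where 5 of the 15 lay), and at 6 mg/kg 3 mice lay below every control while replicate 4 lay above every control. With all libraries the log2 change was -1.54 (SE 0.44, adjusted p = 0.106) at 3 mg/kg and -0.23 (SE 0.43, adjusted p = 0.733) at 6 mg/kg. Without the 2 it was -1.18 (SE 0.20, adjusted p = 0.00089) and -0.76 (SE 0.19, adjusted p = 0.0047), and 0.42 (SE 0.21, adjusted p = 0.175) between 6 and 3 mg/kg. DESeq2 called the fall at 3 mg/kg in all libraries (adjusted p = 0.0147), while the edgeR adjusted p without 1 library at a time stayed above the threshold. Of the 25-base windows of its transcript 47.3% also occur in Ces3b, and 30.8% of the 50-base windows do, so counts of these neighbours may mix.

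**Figure D4:**
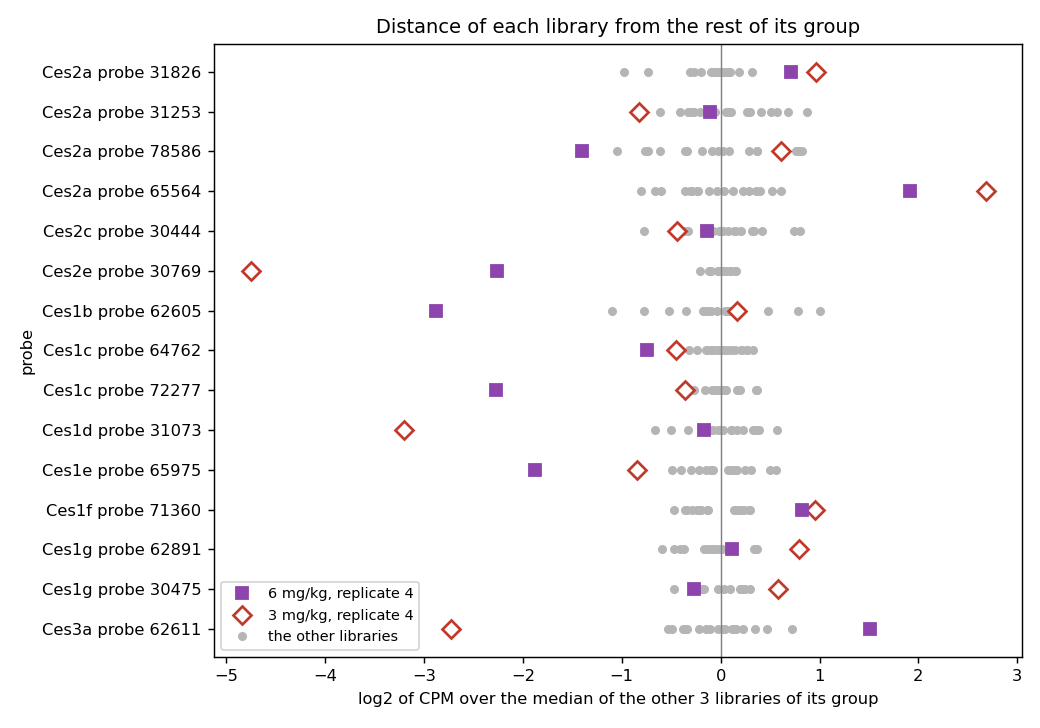
Log2 of the CPM of each library over the median of the other 3 libraries of its group, for each of the 15 probes; squares are replicate 4 of 6 mg/kg, open diamonds replicate 4 of 3 mg/kg and grey points the other 18 libraries. Both marked libraries lie far below their groups for Ces2e, at -2.26 and -4.75, and far above them for Ces2a_65564, at 1.92 and 2.68, while for Ces3a they lie on opposite sides, at 1.51 and -2.72.

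The members did not move as 1 block. Of the 45 pairs of lead probes, 33 had within-library log2 ratios that differed between 6 mg/kg and control, each at the smallest p the design allows (two-sided exact permutation test, p = 0.0286, adjusted p = 0.039, n = 4 each). Such a p means only that the ratios of the 2 groups did not overlap. The share of such pairs over all probes was not computed, so the count is not shown to be particular to the carboxylesterases. Of all single probes, 13.2% lay fully above control and 13.6% fully below at 6 mg/kg. Ces2a rose more than each of the other 9 members, by 1.31 log2 units more than Ces2c and by 1.65 more than Ces1g, and without replicate 4 of 6 mg/kg by 1.06 and 1.48. Among the other members that rose, Ces2c over Ces1d differed by 0.40 (adjusted p = 0.347), Ces2c over Ces1g by 0.34 (adjusted p = 0.179) and Ces1d over Ces1g by -0.06 (adjusted p = 0.900), none past the threshold. Without replicate 4 of 6 mg/kg, 0 of 45 pairs passed and the smallest adjusted p was 0.0714, in a design of 3 mice against 4 that cannot give a p under 0.0571.

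Of the 10 Ces genes outside the set, 5 passed the filter on low counts. At 6 mg/kg 2 of these 5 were higher and 1 was lower, against 11.6% higher and 8.73% lower over all probes. Their median log2 change was 1.25, which is the value of the pseudogene Ces2d-ps. That gene had 10 to 18 counts per library at 6 mg/kg, against 1 to 7 in controls. It thus passed the filter through the group where it was high, so this median is no support for a rise. Ces2b, which lies between Ces2a and Ces2c, gave 180, 266, 220 and 449 CPM at 6 mg/kg, against 43.3, 41.2, 38.5 and 42.3 CPM in controls, a log2 change of 2.75 (SE 0.35). Ces2f, next to Ces2e, gave 2.88, 6.94, 6.86 and 16.9 CPM at 6 mg/kg, against 2.37, 2.39, 1.40 and 2.47 CPM in controls, a log2 change of 1.97 (SE 0.47, adjusted p = 0.0055). Ces3b, the neighbour of Ces3a, gave 317, 210, 194 and 91.9 CPM at 6 mg/kg, against 759, 844, 1009 and 954 CPM in controls, a log2 change of -2.13 (SE 0.30). These values are of the lead probes, and the further probes of the 3 genes had few counts. Every further Ces2f probe had 0 or 1 count in each library. The second Ces2b probe did not rise, with 1 to 7 counts in controls and 0 to 1 at 6 mg/kg. The second Ces3b probe had 2 to 6 counts in controls and 0 to 3 at 6 mg/kg. For all 3 lead probes the groups were apart and replicate 4 of 6 mg/kg was the most extreme. All 3 also passed the test between 6 and 3 mg/kg, where 6.73% of all probes did, with log2 changes of 2.21 (SE 0.34), 2.70 (SE 0.50) and -1.61 (SE 0.29). None passed it at 3 mg/kg against control, where 1.49% of all probes did. Without the 2 libraries 1 of the 5 passed at 3 mg/kg, against 2.66% of all probes. With the 18 libraries the log2 changes of Ces2b, Ces2f and Ces3b at 6 mg/kg were 2.44 (SE 0.18), 1.39 (SE 0.29) and -1.88 (SE 0.17) against control and 1.61 (SE 0.19), 1.66 (SE 0.32) and -1.58 (SE 0.17) against 3 mg/kg. Ces2g had 0.39 (SE 0.37) and the pseudogene Ces2d-ps 1.25 (SE 0.51, adjusted p = 0.086) at 6 mg/kg. Ces1a, Ces1h, Ces2h, Ces4a and Ces5a were too low to test.

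Other hydrolases of foreign compounds were mixed at 6 mg/kg, with 3 of 13 tested genes higher and 2 lower and a median log2 change of -0.04, against 11.6% higher and 8.73% lower over all probes. Leaving out the 2 libraries gave 4 higher and 3 lower. Ephx1, the microsomal epoxide hydrolase, averaged 585 ± 317 CPM at 6 mg/kg and 151 ± 16.6 CPM in controls (SD, n = 4 each), a log2 change of 1.95 (SE 0.24, adjusted p = 1.0e-05); its mean at 6 mg/kg was 429 ± 66.0 CPM (n = 3) and its log2 change 1.52 (SE 0.12) without the 2 libraries. Pon1, the paraoxonase of plasma lipoprotein, averaged 3.97 ± 1.72 CPM at 6 mg/kg and 11.3 ± 2.03 CPM in controls, a log2 change of -1.52 (SE 0.31, adjusted p = 0.0018). Aadac, a deacetylase of the endoplasmic reticulum, had -0.67 (SE 0.18, adjusted p = 0.010), and Cmbl and Ephx2 had 0.97 (SE 0.23) and 0.79 (SE 0.26), the last 0.45 (SE 0.14) without the 2 libraries. Of 10 tested lipases and regulators of neutral lipid, 4 were higher and 0 lower, with a median of 0.57, against the same shares of all probes, and 5 were higher and 1 lower without the 2 libraries. Abhd5, the coactivator of adipose triglyceride lipase, had 1 (SE 0.20, adjusted p = 0.0012) at 6 mg/kg and 0.85 (SE 0.20, adjusted p = 0.030) at 3 mg/kg. At 6 mg/kg Abhd6, a monoacylglycerol lipase, had 0.69 (SE 0.17, adjusted p = 0.0076), and Mgll had 1.18 (SE 0.31), or 0.70 (SE 0.19) without the 2 libraries. Pnpla3 had 1.75 (SE 0.40), from 17 to 23 counts per library at 6 mg/kg, against 2 to 8 in controls. With so few counts in controls, Pnpla3 may have passed the filter only through the 6 mg/kg group. Its rise is therefore no support for the count of lipases that were higher.

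Some genes outside the Ces family followed the members closely over the 20 libraries, with the differences between dose groups left in. By Pearson correlation of log2 CPM over the 20 libraries, among 3704 genes with a mean of at least 20 CPM, the 5 most like Ces2a were 4931406C07Rik (r = 0.98), Pla2g6, Gstt3, Ugdh and Gstm3 (r = 0.97 each), a phospholipase, 2 glutathione transferases and UDP-glucose dehydrogenase among them. The 5 most like Ces1g were Cyp51 (0.96), Abcc2 (0.94), Papss2, Sqle and Adrm1 (0.93 each), among them 2 enzymes of cholesterol synthesis and a canalicular transporter. The 5 most like Ces3a were Tomm70a and Dpy30 (0.94 each), Itih2, Hacd3 and Itih1 (0.93 each). In the 18 libraries the correlations with Ces2a were 0.96 to 0.99 and those with Ces1g 0.91 to 0.95, whereas those with Ces3a were 0.79 to 0.92. The points share libraries and dose groups, so these are descriptions of a common course. Likeness between mice of the same dose was not computed.

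Fewer cells of a type and less RNA per cell cannot be told apart in whole liver. The counts of markers here stand beside 11.6% higher and 8.73% lower over all probes at 6 mg/kg. Of the 5 hepatocyte markers 0 were higher and 1, Alb, was lower at 6 mg/kg (log2 change -0.82, SE 0.24, adjusted p = 0.021), with a median log2 change of -0.13. Their summed level, in which the most abundant markers weigh most, was 12885 to 15612 CPM at 6 mg/kg, against 18276 to 22478 CPM in controls. The Kupffer cell list had 0 of 7 higher and 1 lower, with sums of 63.0 to 111 CPM at 6 mg/kg, against 102 to 153 CPM in controls. The stellate cell list had 1 of 5 higher and 3 lower, with sums of 64.4 to 95.5 CPM at 6 mg/kg, against 104 to 137 CPM in controls. Of the lists with few tested markers, the endothelial had 1 of 4 higher and 0 lower, the erythroid 1 of 2 higher and 0 lower, the small intestinal and the pancreatic 1 of 2 higher and 1 of 2 lower each, and that of lymphocytes and neutrophils 1 of 4 higher and 1 lower. The sums of that last list, 39.4 to 64.0 CPM at 6 mg/kg, against 12.1 to 20.8 CPM in controls, moved with S100a8, a neutrophil gene that was also higher at 3 mg/kg (4.10, SE 0.44). Bile duct and fat cell markers summed to at most 1.80 and 0.704 CPM in any library, and none of them passed the filter. Their part in the carboxylesterase values was not tested.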

How the data were processed

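The values start from raw counts per probe as deposited by the authors, 1 column per mouse; the submitters' processing notes name Bowtie and the build GRCm38.p5, with the Bowtie version and the counting settings not given in the sources used here. No row lacked a gene name and 0 columns were without a sample. The 10 genes and all gene lists were chosen with earlier results of these data known. The named genes are all members, the other Ces genes, up to 2 called genes of the other lists per direction and comparison by smallest p, and the 5 genes most like Ces2a, Ces1g and Ces3a; Aadac, Cmbl, Ephx2, Abhd6, Mgll, Pnpla3 and the marker genes were named after their values were seen.

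Probes were kept by filterByExpr in edgeR 4.0.16 (R 4.3.3), which left 14122, and libraries were scaled by TMM. A robust quasi-likelihood model with 1 mean per group was fitted to all 20 libraries, with Benjamini-Hochberg adjustment over all probes kept and a threshold of 0.05; the model was tested on simulated data. Pairs of probes were compared by exact permutation of log2 ratios with 0.5 added (SciPy 1.17.1). Each library is a separate mouse per the labels; replicate numbers follow the accession order and pair nothing. Promoters came from RefSeq (GRCm38.p6). Alternatives were other scalings and filters, DESeq2 1.42.0, limma-voom (limma 3.58.1), probes summed per gene, the groups compared alone, plate row as a term and libraries left out. Amplified reads are not independent molecules, so limits set by counts cover counting error only.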

Additional observations from a re-analysis of the deposited data

Results flagged for a closer look

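In 75 groups of 4 mice, 1 for each probe and dose, 9 held a mouse far from the other 3 by Dixon's criterion, which chance meets in about 1 group in 20, and 8 of the 9 were replicate 4 of 3 mg/kg or of 6 mg/kg. Ces2a_65564 stood at 157 CPM in replicate 4 of 3 mg/kg, against 19.0 to 30.0 in the others of its group. It stood at 494 CPM in replicate 4 of 6 mg/kg, against 115 to 142. Ces2e stood at 23.3 CPM in replicate 4 of 3 mg/kg, against 587 to 647, and at 125 CPM in replicate 4 of 6 mg/kg, against 588 to 609. Ces1b stood at 1.90 CPM in replicate 4 of 6 mg/kg, against 12.7 to 14. The second Ces1c probe stood at 2574 CPM in replicate 4 of 3 mg/kg, against 3213 to 3335. Ces3a stood at 3.62 CPM in replicate 4 of 3 mg/kg, against 22.1 to 24.5, and at 88.8 CPM in replicate 4 of 6 mg/kg, against 25.9 to 36.4. It also stood at 42.2 CPM in replicate 4 of 0.3 mg/kg, the 1 mouse of that group in plate row B, against 60.1 to 62.2. What set these libraries apart was not tested.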

How the results depend on the processing

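The count of 0 at 0.03 and 0.3 mg/kg held under all alternatives run. With 8 probes called at 6 mg/kg and 5 at 3 mg/kg against control, 5 for 6 against 3 mg/kg and 8 for the slope, plate row as a term left 4, 0, 5 and 3 of 15, and of the 12 other esterase genes called at 6 mg/kg it left 4, an alternative chosen after seeing the data. Summing probes gave 4, 2, 3 and 4 of 10 genes, since Ces2a, Ces1c and Ces1g then count once, where 22.6%, 1.72%, 8% and 19.8% of 10245 genes were called. Fitting only the groups compared left 0 at 3 mg/kg and 0 for 6 against 3 mg/kg; for 6 against 3 mg/kg no count filter gave 3 and DESeq2 gave 8. Leaving out 1 library gave 7 to 9 at 6 mg/kg, 2 to 6 at 3 mg/kg, 2 to 9 for 6 against 3 mg/kg, 7 to 8 for the slope and 11 to 17 other esterase genes. The count at 3 mg/kg was 2 without control replicate 1 or 2 and 3 without control replicate 3 or 4 or 3 mg/kg replicate 3. The count for 6 against 3 mg/kg was 2 without 3 mg/kg replicate 1 or 2 or 6 mg/kg replicate 4, 3 without 6 mg/kg replicate 2 or 3, and 9 without 3 mg/kg replicate 4. Calls were gained by Ces1g at 3 mg/kg with DESeq2 (0.66, adjusted p = 0.040) and without 3 mg/kg replicate 1 (0.78, adjusted p = 0.048), Ces1f at 6 mg/kg without 3 mg/kg replicate 4 (0.51, adjusted p = 0.028), and Ces1e without 6 mg/kg replicate 4 (0.73, adjusted p = 0.037, at 3 mg/kg and 0.63, adjusted p = 0.028, at 6 mg/kg), beside those of Ces3a given above. Signs turned for changes that did not pass the test with all libraries: Ces1f at 3 mg/kg was -0.044 with limma-voom, -0.28 without the 2 libraries that stood apart, -0.28 to 0.14 with 1 library left out, negative without control replicate 4 or 3 mg/kg replicate 4; Ces1d at 3 mg/kg was 0.56 with plate row, 0.20 without the 2 libraries and -0.43 to 0.21 with 1 left out, positive only without 3 mg/kg replicate 4. Ces3a at 6 mg/kg was 0.30 with plate row. Ces2e without the 2 libraries was 0.072 at 3 mg/kg and 0.039 at 6 mg/kg. With 1 library left out at a time, the lowest and highest values were -0.50 and 0.078 at 3 mg/kg, -0.42 and 0.0054 at 6 mg/kg, positive only without replicate 4 of the dose itself. Ces1d at 6 mg/kg lost its call with no count filter (adjusted p = 0.071), limma-voom (0.066) and plate row (0.169), and Ces2c at 6 mg/kg with plate row (0.072). Scaling by total counts moved the median of all probes at 6 mg/kg to 0.15 and called 8 of 15. The causes were not tested. No paired analysis was possible because the labels number no replicates. With 4 mice a group and 2 of 8 high-dose libraries apart, changes of Ces1e, Ces1f and Ces3a are poorly bounded.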
